A study of Mus musculus with 6 samples.

Results

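Vascular endothelial growth factors (VEGFs) are secreted dimers that bind receptor tyrosine kinases on the cell surface, and neuropilins hold the same ligands as co-receptors. The family is best known for the growth of blood and lymphatic vessels. In the skeleton, Vegfa from hypertrophic chondrocytes draws vessels into cartilage, whereas resting articular cartilage has no vessels. The genes described here are the ligands *Vegfa*, *Vegfb*, *Vegfc*, *Vegfd* (older symbol *Figf*) and *Pgf*, the receptors *Flt1*, *Kdr* and *Flt4*, and the neuropilins *Nrp1* and *Nrp2*. They were chosen by gene symbol, and all 10 were found among the 17854 genes measured.

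The samples were Tomato+ cells sorted from digested knee cartilage of male C57BL/6 mice and sequenced in bulk. In *Prrx1-Cre; R26tdTomato* mice, Cre driven by *Prrx1*, a gene of limb mesenchyme, switches on the red protein tdTomato for good, so the label marks descendants of *Prrx1*-expressing cells and not 1 cell type. The MSC-derived group (3 libraries) came from mice with knee osteoarthritis induced by cutting the anterior cruciate ligament whose joints were injected with *Prrx1*-lineage mesenchymal stromal cells (MSCs) from inguinal white adipose tissue of such reporter mice. The endogenous group (3 libraries) was made of the reporter mice's own articular Tomato+ cells, with age and sex matched, and no injection or surgery is stated for it. Both groups were sorted for Tomato, whose level was not measured here. The age at harvest is not given in the sources used here. The origin of the cells and the state of the joint changed together between the groups and cannot be told apart. The methods name 3 mice for either sample, and the sources used here do not say whether a library is 1 mouse or a pool, so p-values measure the spread between these libraries, which may be partly technical.

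Expected counts summed to between 22060628 and 24881796 per library, where 3 counts, taken as the floor of detection, are 0.121 to 0.136 CPM (counts scaled to library size), and this floor covers counting error only. Endogenous replicate 1 stood apart. It had 3449 genes at 0 counts, compared with 1323 to 1936 in the other libraries, and calls that rest on it are given below with and without it. The chondrocyte label held poorly for the MSC-derived libraries. All 14 chondrocyte markers were lower there, with a summed level of 390 to 407 FPKM (a level per transcript length and per sequenced fragments) against 14581 to 16258 FPKM. All 18 macrophage and monocyte markers were higher, at 25979 to 26929 FPKM against 464 to 691 FPKM, and all 10 neutrophil and all 8 erythroid markers were higher as well. In the test described below, 31.3% of all genes were higher and 30.3% lower. Bone cell markers were high in the endogenous libraries. Of 9 osteoblast and osteocyte markers tested, 8 were lower in the MSC-derived cells, at 589 to 617 FPKM against 30643 to 48043 FPKM. Without endogenous replicate 1, all 10 markers tested were lower, where 38.6% of all genes were lower. The erythroid sum was 37521 to 38659 FPKM against 5525 to 8249 FPKM. *Csf1r*, the receptor that defines macrophages, had 201 ± 2.33 FPKM against 3.14 ± 0.433 FPKM (SD, n = 3). The part of these cell types in the values that follow was not tested. In bulk RNA, fewer cells that express a gene and less RNA of it per cell cannot be told apart.

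The VEGF family changed in composition rather than in 1 direction. *Vegfb* was the main ligand transcript of the MSC-derived cells, and *Pgf*, *Vegfa* and *Vegfc* were the main ones of the endogenous cells. *Nrp2* led the receptors of the endogenous cells and *Nrp1* those of the MSC-derived cells. In the quasi-likelihood test of edgeR, with a threshold of 0.05 on the p adjusted over all genes, 8 of the 10 genes were called, as were 61.6% of all genes tested. The call was higher in the MSC-derived cells for 3 of them (*Vegfb*, *Flt1* and *Kdr*), where 31.3% of all genes tested were called higher. A further 5 were lower (*Vegfa*, *Vegfc*, *Pgf*, *Nrp1* and *Nrp2*), where 30.3% of all genes were called lower. *Vegfd* and *Flt4* were not called. MSC-derived and endogenous values were fully separate for 9 of the 10 genes, against 72.4% of all genes, so neither the number of calls nor the lack of overlap sets the family apart. Log2 fold changes are MSC-derived over endogenous and are given ± standard error. Their median was -0.38 for the family and 0.05 for all genes, and the median size of the change regardless of direction was 1.74 and 0.88. All 10 genes passed the filter on low counts.

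**Figure D1:**
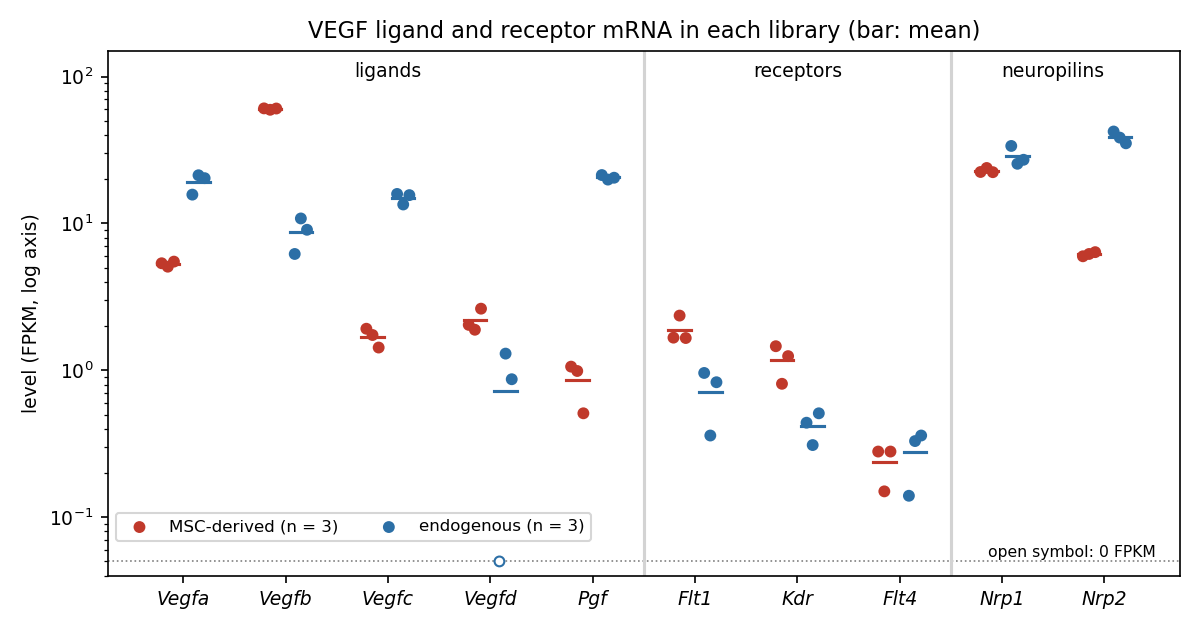
Level of the 10 genes in FPKM (log axis) in each of the 3 MSC-derived (red) and 3 endogenous (blue) libraries, with a bar at each group's mean and an open symbol for a value of 0. *Vegfb* is the only ligand whose MSC-derived libraries (59.5 to 60.8 FPKM) lie far above the endogenous ones (6.20 to 10.8 FPKM), and *Pgf*, *Vegfa*, *Vegfc* and *Nrp2* lie well below.

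*Vegfb* encodes a ligand of Flt1 and Nrp1 that is linked to heart, muscle and fat tissue more than to vessel growth. It had 60.8, 59.5 and 60.6 FPKM in MSC-derived and 6.20, 10.8 and 9.06 FPKM in endogenous libraries. The lowest MSC-derived library was 5.02 times the highest endogenous library after scaling. Its log2 fold change was 2.66 ± 0.20 (adjusted p = 1.63e-05), which is 6.34-fold, and 2.42 without endogenous replicate 1. In the MSC-derived cells *Vegfb* stood above 91.1% of all genes by mean FPKM, and in the endogenous cells above 67.2%.

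*Vegfa* encodes the principal vessel growth factor, which signals through Kdr and also binds Flt1. Its values were 5.36, 5.08 and 5.50 FPKM in MSC-derived and 15.7, 21.3 and 20.4 FPKM in endogenous libraries. All MSC-derived values lay below all endogenous values, and the log2 fold change was -1.97 ± 0.14 (adjusted p = 1.50e-05). *Pgf*, the placental growth factor gene, whose product binds Flt1 but not Kdr, changed most of the family. It had 37, 30 and 16 counts in MSC-derived and 714, 672 and 723 in endogenous libraries, or 0.853 ± 0.299 and 20.6 ± 0.74 FPKM (mean ± SD, n = 3). The log2 fold change of *Pgf* was -4.74 ± 0.26 (adjusted p = 3.33e-06), a 26.8-fold decrease, and lay between -4.96 and -4.49 when single libraries were left out.

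Markers of hypertrophic chondrocytes, a known source of Vegfa, moved with *Vegfa* and *Pgf*. All 6 were lower in the MSC-derived cells, where 30.3% of all genes were lower. Their summed level was 43.7 to 46.9 FPKM against 916 to 1005 FPKM. All 14 chondrocyte markers and 8 of 9 osteoblast and osteocyte markers (10 of 10 without endogenous replicate 1) were lower too. The fall was thus not particular to hypertrophic chondrocytes. The part of any of these cell types in the ligand values was not tested.

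Of the lymphatic growth factors, *Vegfc* was called lower and *Vegfd* was not called. *Vegfc*, whose product drives lymphatic growth through Flt4, had 1.92, 1.74 and 1.43 FPKM in MSC-derived and 15.9, 13.5 and 15.6 FPKM in endogenous libraries. It was lower in every MSC-derived library, its log2 fold change being -3.25 ± 0.18 (adjusted p = 3.36e-06). *Vegfd*, the other Flt4 ligand, had 71, 65 and 79 counts in MSC-derived and 0, 44 and 28 in endogenous libraries. The groups did not overlap, but the log2 fold change of 1.51 carried a standard error of 1.05 (adjusted p = 0.246), and 2 standard errors to either side span -0.58 to 3.60. Without endogenous replicate 1, which had no count for *Vegfd*, the log2 fold change was 0.87 and passed the threshold (adjusted p = 0.0287), in a fit where 76.4% of all genes were called.

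The promoters of 3 ligand genes that moved in opposite directions are shown. The hypoxia-inducible factors, whose genes are described further on, bind the hypoxia response element, whose cores are marked below. They are the 250 bases before the start site in RefSeq (build GRCm38.p6, minus strand of the chromosome, written 5′ to 3′ along the gene). The deposited values carry no coordinates, and no position was carried over from their build. Capitals mark GGGCGG, the GC box, and GCGTG or ACGTG, the cores of the hypoxia response element, on either strand. Of the 10 genes, all matched in RefSeq, *Vegfa* and *Pgf* have 2 listed start sites each and the others 1, which gives 12 windows, and the first site is printed. The genes are *Vegfb* (chr19:6987652-6987901), which rose, and *Vegfa* (chr17:46032378-46032627) and *Pgf* (chr12:85177314-85177563), which fell.
Vegfb: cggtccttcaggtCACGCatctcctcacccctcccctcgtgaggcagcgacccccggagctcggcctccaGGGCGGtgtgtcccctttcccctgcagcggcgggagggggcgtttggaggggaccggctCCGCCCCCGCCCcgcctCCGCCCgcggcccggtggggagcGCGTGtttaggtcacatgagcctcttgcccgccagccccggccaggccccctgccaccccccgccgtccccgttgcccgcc
Vegfa: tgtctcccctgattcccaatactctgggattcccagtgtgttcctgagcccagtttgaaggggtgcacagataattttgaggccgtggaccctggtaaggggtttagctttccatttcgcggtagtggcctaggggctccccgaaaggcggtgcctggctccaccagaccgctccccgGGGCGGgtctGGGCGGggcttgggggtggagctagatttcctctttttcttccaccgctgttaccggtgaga
Pgf: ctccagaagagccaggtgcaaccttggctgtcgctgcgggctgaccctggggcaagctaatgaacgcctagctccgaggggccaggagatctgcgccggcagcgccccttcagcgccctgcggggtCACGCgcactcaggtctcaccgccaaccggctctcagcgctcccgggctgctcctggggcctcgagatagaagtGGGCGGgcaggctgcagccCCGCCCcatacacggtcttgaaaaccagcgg

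The *Vegfb* window held GGGCGG 4 times and GCGTG 2 times, that of *Vegfa* GGGCGG 2 times, and that of *Pgf* GGGCGG 2 times and GCGTG 1 time. Over all 12 windows of the family, GGGCGG was present in 10, which are windows of every gene but *Vegfd*, and in 32.7% of the 32851 windows of the same length in the table. GCGTG was present in 7 of the 12 (1 window each of *Vegfa*, *Vegfb*, *Pgf*, *Flt1*, *Kdr*, *Nrp1* and *Nrp2*) and in 28.2% of all windows. ACGTG was present in 1 of the 12 and in 16.6% of all windows. The *Vegfa* matches to GCGTG and ACGTG lie before its second start site (chr17:46025164-46025413), 218 and 211 bases upstream, and not in the window printed. On the minus strand this second window lies downstream of the first start site, inside the gene. Its bases may thus be transcribed from the first site, and whether it acts as a promoter was not tested. The windows of the family had 42.4% to 76.4% G and C, and the median over all windows was 52.4%. Genes that rose and genes that fell both held these letters, and a match is only a match of letters in this window.

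Within a library, shares of the ligand pool do not depend on how libraries are scaled against each other. Of the summed level of the 5 ligand genes in TPM (a level per transcript length, scaled to the same total in every library), *Vegfb* made up 85.4%, 86.0% and 85.8% in MSC-derived and 10.5%, 16.2% and 13.7% in endogenous libraries. *Pgf* made up 1.21% ± 0.425 against 32.3% ± 3.38, *Vegfa* 7.55% ± 0.212 against 29.7% ± 2.79, and *Vegfc* 2.41% ± 0.347 against 23.5% ± 3.34 (SD, n = 3). The MSC-derived cells thus held 11.4 ± 0.33 times as much *Vegfb* as *Vegfa* per transcript length, and the endogenous cells 0.449 ± 0.057 times (SD, n = 3). The log2 ratio differed by 4.67 between the groups, with no overlap, and the exact two-sided permutation test over 3 against 3 libraries gave p = 0.1, the smallest it can give (0.113 after Benjamini-Hochberg adjustment over 17 such measures).

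**Figure D2:**
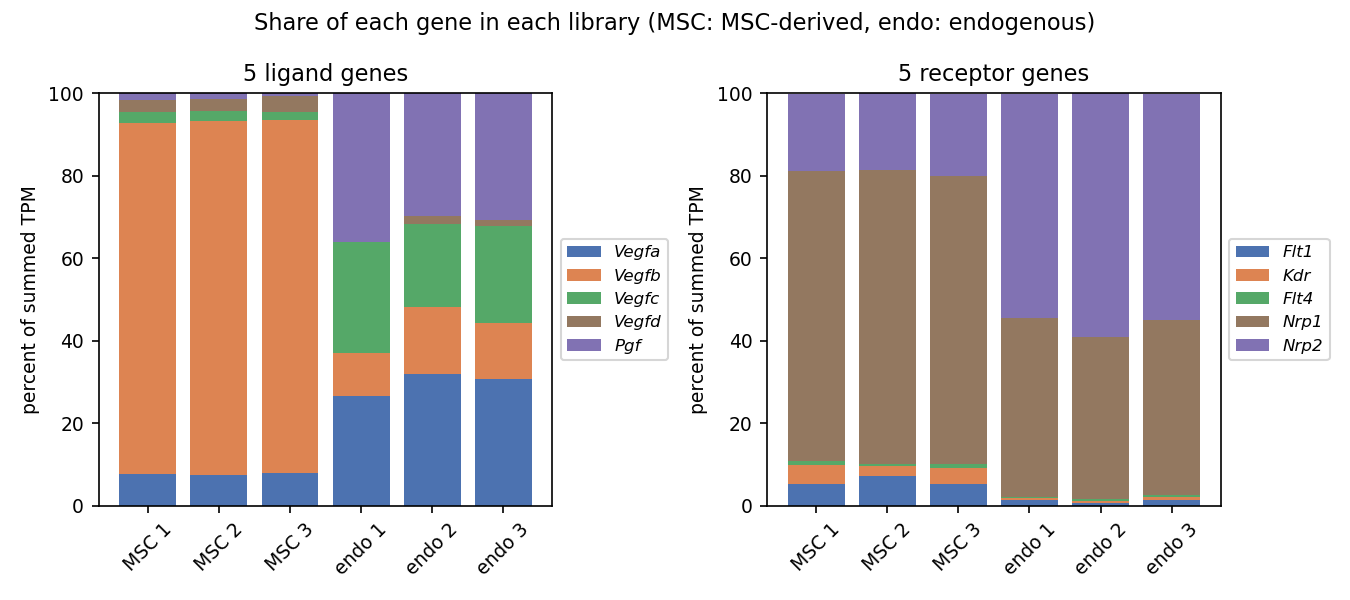
Share of each gene in the summed TPM of the 5 ligand genes (left) and of the 5 receptor genes (right), in percent, in each library (MSC, MSC-derived; endo, endogenous). *Vegfb* takes at least 85.4% of the ligand sum in MSC-derived and at most 16.2% in endogenous libraries, and *Nrp1* takes 70.7% and 41.7% of the receptor sum on average.

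The order of the ligands in the MSC-derived cells was *Vegfb*, *Vegfa*, *Vegfd*, *Vegfc* and *Pgf*, by mean FPKM. *Vegfd* (1.89 to 2.63 FPKM) and *Vegfc* (1.43 to 1.92 FPKM) overlapped, and the others were separate. In the endogenous cells the order was *Pgf*, *Vegfa*, *Vegfc*, *Vegfb* and *Vegfd*. There *Pgf* (19.9 to 21.4 FPKM) overlapped with *Vegfa* (15.7 to 21.3 FPKM), and *Vegfa* with *Vegfc* (13.5 to 15.9 FPKM). Whether the whole ligand pool rose or fell could not be said. Its sum was 86.8 ± 1.22 against 117 ± 0.764 in TPM, 70.3 ± 1.05 against 64.1 ± 4.28 in FPKM, and 67.6 ± 1.18 against 66.8 ± 4.97 in FPKM scaled as in the count test (SD, n = 3), so that the direction followed the scale. TPM shifted the median of all genes tested by -0.40 on the log2 scale, FPKM by 0.17, and the scaled FPKM by 0.05.

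The receptor tyrosine kinases were low in both groups. *Flt1* encodes a receptor for Vegfa, Vegfb and Pgf with weak kinase activity, part of which is made as a soluble decoy. It had 230, 288 and 206 counts in MSC-derived and 92, 45 and 114 in endogenous libraries. All MSC-derived values were higher, its log2 fold change being 1.46 ± 0.35 (adjusted p = 0.00824). *Kdr*, which encodes the main signaling receptor for Vegfa, had 206, 109 and 158 counts against 51, 41 and 73, again without overlap. Its log2 fold change was 1.45 ± 0.35 (adjusted p = 0.00892), but the call was lost without MSC-derived replicate 1 (adjusted p = 0.0502) and in limma with 1 weight per group (adjusted p = 0.0608). *Flt4*, which encodes the lymphatic receptor for Vegfc and Vegfd, had 39, 20 and 35 counts against 19, 44 and 51. These ranges overlapped, and the log2 fold change was -0.34 ± 0.54 (adjusted p = 0.604). At this depth a change in *Flt4* between -1.42 and 0.74, 2 standard errors to either side, could not be told from none.

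The 3 kinase genes together had 4.09 ± 0.163 TPM in the MSC-derived cells and 2.58 ± 0.732 TPM in the endogenous cells (SD, n = 3), small beside the ligands. *Flt1* and *Kdr* rose by nearly the same amount, and their log2 ratio was 0.713 ± 0.717 against 0.681 ± 0.452 (SD, n = 3), with overlapping values (exact permutation p = 1). By mean FPKM *Flt1* ranked above *Kdr* and *Kdr* above *Flt4* in both groups. In the endogenous cells *Flt1* (0.36 to 0.96 FPKM) overlapped with *Kdr* (0.31 to 0.51 FPKM), and *Kdr* with *Flt4* (0.14 to 0.36 FPKM). In the MSC-derived cells no neighbours overlapped, with *Flt1* at 1.66 to 2.36 FPKM, *Kdr* at 0.81 to 1.46 FPKM and *Flt4* at 0.15 to 0.28 FPKM.

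Endothelial cells are the main source of these kinases in most tissues, and their markers are set beside *Flt1* and *Kdr*. Of 20 endothelial markers, 8 were higher in the MSC-derived cells, 2 lower and 10 not called, the median log2 fold change being 1.18 and the summed level 74.1 to 79.8 FPKM against 48.4 to 63.1 FPKM. None of the 20 was at 0 counts in every library of a group. *Pecam1*, which encodes the junction protein CD31, had 784, 876 and 737 counts against 121, 150 and 238 (log2 fold change 2.17 ± 0.24, adjusted p = 0.000148), although leukocytes and platelets express it too. *Cdh5*, which encodes VE-cadherin, had 314, 319 and 315 counts against 64, 88 and 150 (log2 fold change 1.59 ± 0.31, adjusted p = 0.00292). The lower markers were *Erg* and *Clec14a*, with log2 fold changes of -2.51 and -2.32. Endogenous replicate 1 had 526 counts of *Clec14a*, and the other endogenous libraries 166 and 219. Without that library the log2 fold changes of *Erg* and *Clec14a* were -2.58 and -1.69. *Erg* had 17.7, 17.9 and 18.5 FPKM in endogenous and 3.18, 3.89 and 3.65 FPKM in MSC-derived libraries. It was the largest single part of the endogenous endothelial sum. Over all genes, 31.3% were called higher and 30.3% lower. Without endogenous replicate 1, 13 were higher and 2 lower, in a fit that called 37.8% of all genes higher and 38.6% lower. The part of endothelial cells in the *Flt1* and *Kdr* values was not tested. Nor was that of macrophages and monocytes, whose 18 markers were all higher in the MSC-derived cells.

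Of the 4 lymphatic markers, *Ccl21a* and *Reln* were higher in the MSC-derived cells, *Prox1* was lower and *Mmrn1* was not called. Among all genes, 31.3% were called higher and 30.3% lower. *Ccl21a*, a chemokine with near-identical copies in the mouse genome, so that its reads may be divided, had 107 to 117 counts in MSC-derived and 0 in endogenous libraries. *Prox1*, the regulator that defines lymphatic identity, was near the floor, with 7, 3 and 11 counts against 17, 41 and 65. *Reln* was low as well, with 29, 43 and 36 counts against 0, 7 and 5.

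**Figure D3:**
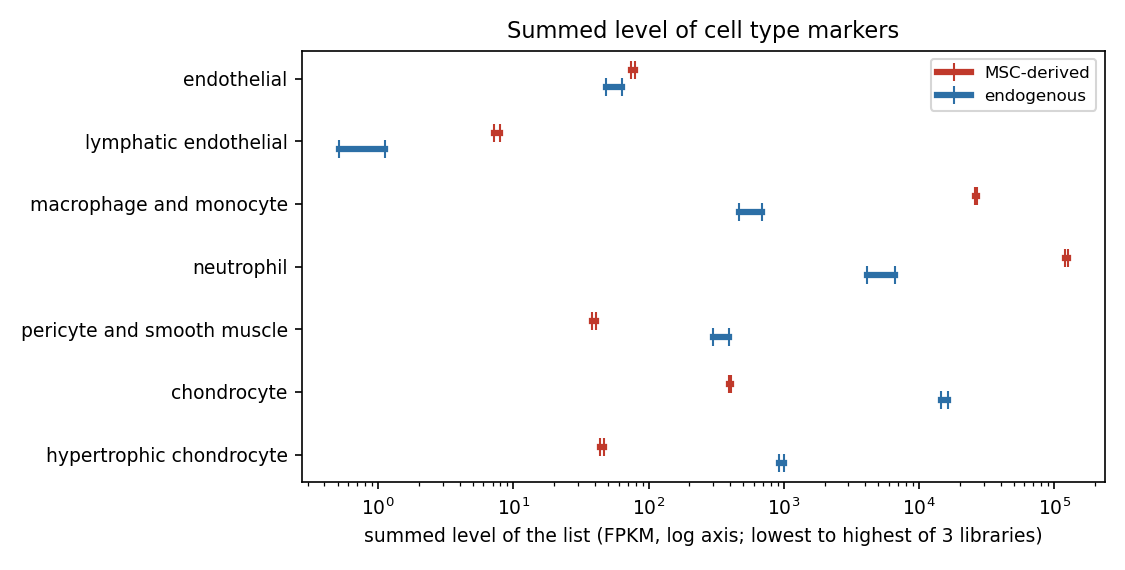
Summed FPKM (log axis) of the markers of 7 cell types, drawn from the lowest to the highest of the 3 libraries of each group (red, MSC-derived; blue, endogenous). The endothelial sums are 74.1 to 79.8 and 48.4 to 63.1 FPKM, with *Erg* giving 17.7 to 18.5 FPKM of the endogenous sum. The chondrocyte, macrophage and neutrophil sums lie farther apart.

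Neuropilins made up most of the receptor transcripts. They bind VEGFs and also class 3 semaphorins, which guide axons and cells and signal through plexins. *Nrp2*, which prefers Vegfc, had 5.98, 6.20 and 6.38 FPKM in MSC-derived and 42.3, 38.4 and 35.2 FPKM in endogenous libraries. It was lower in every MSC-derived library, its log2 fold change being -2.70 ± 0.10 (adjusted p = 5.05e-07), or 6.52-fold. *Nrp1*, which binds Vegfa and Vegfb, had 22.4, 23.9 and 22.4 FPKM against 33.7, 25.5 and 27.2 FPKM. The groups did not overlap, but the nearest libraries were only 1.15-fold apart, and the log2 fold change was -0.41 ± 0.11 (adjusted p = 0.0132). The call for *Nrp1* was lost without MSC-derived replicate 1 or 3 (adjusted p = 0.0586 and 0.0579), with library size as the only scaling (adjusted p = 0.0536) and in limma on unfiltered log2(FPKM + 1) (adjusted p = 0.0584).

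The leading neuropilin changed places. The MSC-derived cells had 3.70 ± 0.179 times as much *Nrp1* as *Nrp2* in TPM and the endogenous cells 0.744 ± 0.0712 times (SD, n = 3). Of the summed TPM of the 5 receptor genes, *Nrp1* made up 70.7% ± 0.736 and 41.7% ± 2.19, and *Nrp2* 19.1% ± 0.77 and 56.2% ± 2.59 (SD, n = 3). The summed receptor level was 39.9 ± 1.17 TPM against 126 ± 23.8 TPM (SD, n = 3), a log2 difference of -1.64, and the MSC-derived sum was the lower one on all 3 scales (32.4 ± 0.882 against 68.8 ± 7.57 in FPKM). Each of these measures had no overlap and an exact permutation p of 0.1, the smallest possible.

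**Figure D4:**
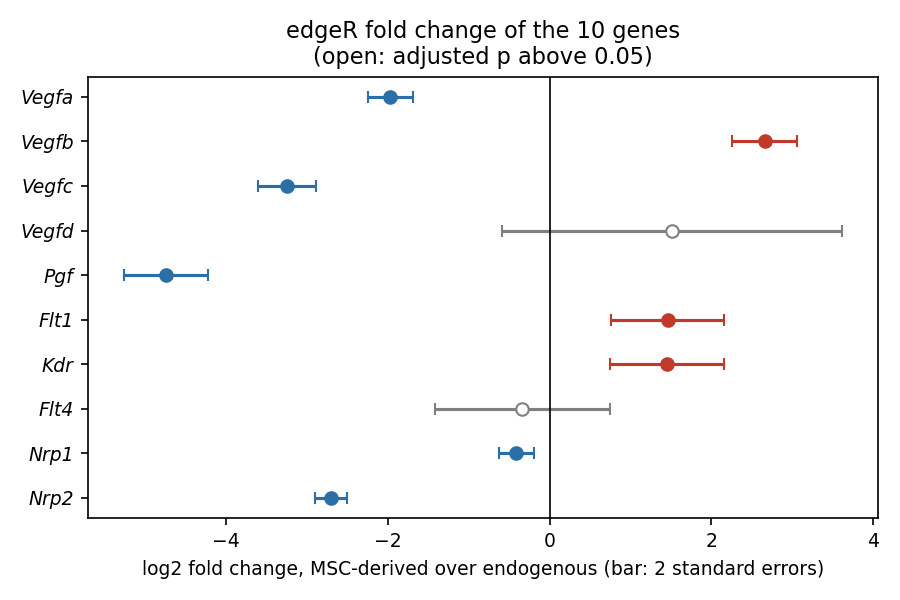
Log2 fold change of the 10 genes from edgeR, MSC-derived over endogenous, with bars of 2 standard errors. Red and blue symbols were called higher and lower, and the open symbols, *Vegfd* and *Flt4*, were not called, with bars that span 0.

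Of the 12 plexin and class 3 semaphorin genes, 2 were higher in the MSC-derived cells, 7 lower and 3 not called, with a median log2 fold change of -1.80. Of all genes, 30.3% were lower. Without endogenous replicate 1 the list had 2 higher and 9 lower, where 38.6% of all genes were lower. *Plxna1*, which encodes a plexin that pairs with neuropilins, had 3717, 3583 and 3439 counts against 401, 509 and 522 (log2 fold change 2.84 ± 0.11, adjusted p = 6.91e-07). *Sema3a*, the classical Nrp1 ligand, was the other higher gene (log2 fold change 1.16). *Sema3d* and *Sema3e* were lowest, with log2 fold changes of -4.67 and -3.57. *Sema3e*, whose product binds Plxnd1 without a neuropilin, had 60.1 to 129.1 counts in MSC-derived and 973.0 to 1072 in endogenous libraries. *Plxnd1* itself had a log2 fold change of -0.28 and was not called (adjusted p = 0.0861), but without endogenous replicate 1 it was called at -0.39 (adjusted p = 0.00306).

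Of 18 measured genes for proteins that cut, hold or block VEGFs outside the cell, 15 were lower in the MSC-derived cells, where 30.3% of all genes were lower, 2 were higher and 1 (*Tnmd*) was not called, with a median log2 fold change of -1.78. *Ccbe1* and *Adamts3*, whose products activate Vegfc, fell along with it, with log2 fold changes of -3.28 and -3.30. Their counts were 18 to 31 against 163 to 408 for *Ccbe1* and 11 to 39 against 232 to 280 for *Adamts3*. *Cnmd*, a vessel inhibitor of cartilage that is also a chondrocyte marker, fell by 8.45, and *Sparc*, a matrix protein that binds VEGF, by 4.66 on the log2 scale. *Mmp9*, a protease of neutrophils and osteoclasts that frees matrix-bound VEGF, was higher, with 166 ± 4.8 FPKM against 22.3 ± 1.54 FPKM (SD, n = 3, log2 fold change 2.77, adjusted p = 1.51e-07). *Pcsk7*, a proprotein convertase gene, was also higher (log2 fold change 0.42, adjusted p = 0.0202).

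*Vegfa* is a well-known target of the hypoxia-inducible factors. Of 9 oxygen sensing genes tested, 6 were lower in the MSC-derived cells, none was higher and 3 (*Egln2*, *Vhl* and *Hif1an*) were not called, where 30.3% of all genes were lower and 31.3% higher. *Hif1a* had 2094, 2082 and 1846 counts against 8007, 5702 and 6017 (log2 fold change -1.79 ± 0.14, adjusted p = 2.45e-05). *Epas1*, which encodes HIF-2α, had 445, 367 and 354 counts against 4533, 4556 and 4282 (log2 fold change -3.60 ± 0.10, adjusted p = 1.48e-07). These are transcript levels, and the factors are controlled largely at the protein level, which was not measured.

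The relay genes inside the cell showed no common direction. Of 36 genes from the adaptors to the kinases, 16 were higher in the MSC-derived cells, 11 lower and 9 not called, with a median log2 fold change of 0.29. *Prkcb* and *Vav2*, both also used by leukocyte receptors, were highest (log2 fold changes 3.46 and 2.62). *Prkca* and *Hspb1* were lowest among the better expressed genes (mean log2 CPM 3 or more), at -2.88 and -2.37, so that the protein kinase C genes *Prkca* and *Prkcb* went opposite ways. *Plcg1*, the phospholipase that binds activated Kdr, had a log2 fold change of -1.52 (adjusted p = 0.000275). All of these proteins serve many receptors. Over all genes, 31.3% were higher and 30.3% lower. Without endogenous replicate 1 the relay counts were 19 higher, 15 lower and 2 not called, where 37.8% of all genes were higher and 38.6% lower.

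**Figure D5:**
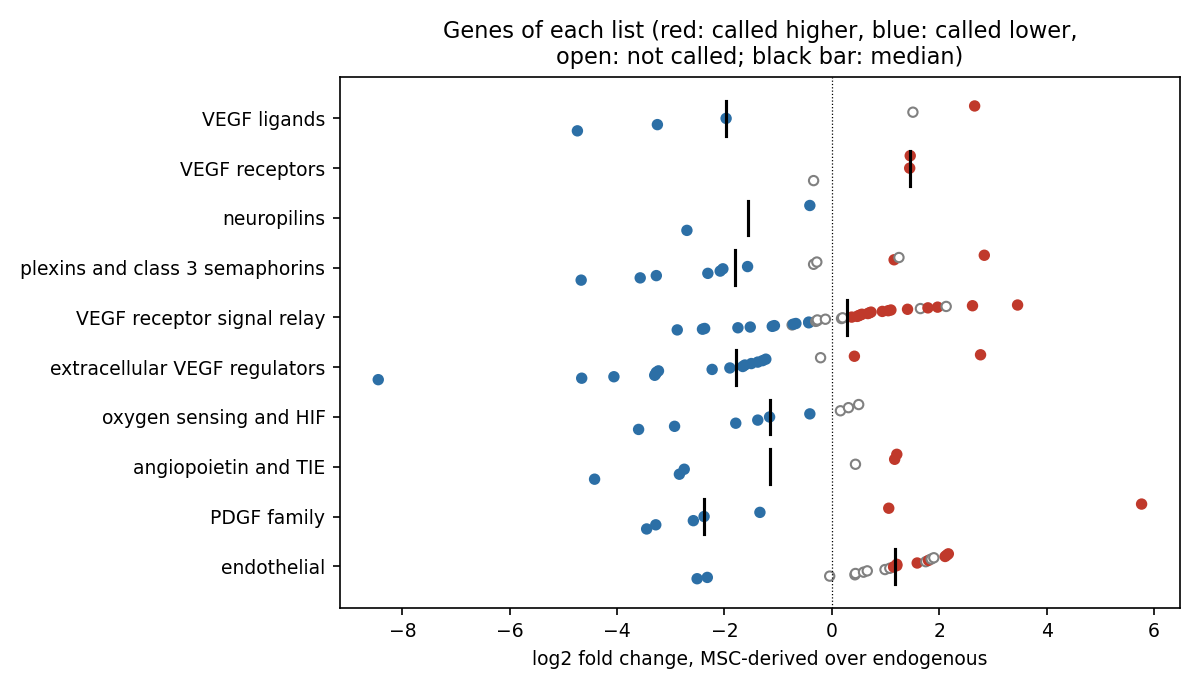
Log2 fold change (MSC-derived over endogenous) of every tested gene in the VEGF groups, the related lists and the endothelial markers, with called genes in red (higher) or blue (lower), others open, and the median of each list as a black bar. The extracellular regulators and oxygen sensing genes lie mostly below 0 (medians -1.78 and -1.16) and the relay genes on both sides (median 0.29).

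In the angiopoietin system, which acts on vessels through the receptor Tek, all 3 angiopoietin genes were lower in the MSC-derived cells. Of all genes, 30.3% were lower. The log2 fold changes were -2.84 for *Angpt1*, -2.75 for *Angpt2* and -4.42 for *Angpt4*. *Angpt4* had 80, 40 and 53 counts against 1163, 1230 and 1106. *Tie1* was higher (log2 fold change 1.21), and *Tek* was not called (90, 78 and 114 counts against 128, 14 and 56, adjusted p = 0.605). The angiopoietin-like gene *Angptl4*, which is not counted here as a Tek ligand gene, was higher too (log2 fold change 1.17). Endogenous replicate 1 gave the 128 counts of *Tek*, and without that library *Tek* was called higher (log2 fold change 1.33, adjusted p = 0.00583). The genes of the related platelet-derived growth factors were called in both directions. *Pdgfb* had 1047, 964 and 914 counts in MSC-derived and 0, 17 and 34 in endogenous libraries (log2 fold change 5.77 ± 0.68, adjusted p = 0.000216), and *Pdgfc* was higher too (1.06). *Pdgfa*, *Pdgfd*, the receptor genes *Pdgfra* and *Pdgfrb* and the receptor-like gene *Pdgfrl* were lower, with log2 fold changes between -3.45 and -1.34. Without endogenous replicate 1, which had no count for *Pdgfb*, the 7 genes again gave 2 higher and 5 lower. That fit called 37.8% of all genes higher and 38.6% lower. Mural cells, which surround vessels and carry Pdgfrb, were represented by 11 markers. Of these, 10 were lower in the MSC-derived cells, where 30.3% of all genes were lower. Without endogenous replicate 1 all 11 were lower, where 38.6% of all genes were lower. Among these *Rgs5* had 480 to 600 counts against 4096 to 5088. Their part in the *Pdgfrb* value was not tested.

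The genes closest to a ligand in level and pattern were ranked by the Euclidean distance in log2(TPM + 1) over the 6 libraries. For *Vegfa* these were *Ntn1*, *Tubb2b* and *Mrc2*, at distances of 0.204, 0.302 and 0.323. For *Vegfb* they were *Cmbl*, *Abtb1* and *Stom*, at 0.263, 0.424 and 0.482. *Cmbl* had a mean of 73.5 TPM against 15.4 TPM, beside 74.4 TPM against 15.7 TPM for *Vegfb*.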

How the data were processed

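Bulk RNA-seq of 6 libraries was analysed, 3 of MSC-derived and 3 of endogenous Tomato+ cells, grouped by sample title. In the authors' pipeline SOAPnuke cleaned the reads, HISAT2 and Bowtie2 did the alignment, and RSEM gave the gene values. The submitters' processing notes name Bowtie2 2.2.5, RSEM 1.2.12 and the genome build mm9, and the methods text gives other versions. The authors deposited RSEM expected counts without normalization, FPKM, scaled by the length of the transcript and the depth, and TPM, with the same total in every library. A deposited signal, the count rounded up times 1 factor per library, served only to check the counts. Of the columns, 24 were mapped to samples, 8 of group means were not used and 0 were unmapped.

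Expected counts were rounded, which changed 20.6% of values, filtered with filterByExpr, scaled by TMM and tested with the quasi-likelihood test of edgeR 4.0.16 (R 4.3.3) over 14289 genes, with Benjamini-Hochberg adjustment and a threshold of 0.05. Standard errors are the log2 fold change divided by the square root of F. Shares, sums and ratios were taken per library in TPM and compared by exact permutation over libraries. The test was tried on simulated counts first. The members and gene lists were chosen with earlier results of these data known. Named are all 10 members, all angiopoietin and PDGF genes, the 2 largest changes in each direction of each other list (average log2 CPM of at least 3), set markers, markers at 0, and 3 nearest genes. Outside that rule, *Vegfc* activators, *Plxnd1*, *Plcg1*, *Erg*, *Clec14a*, *Reln*, *Mmrn1* and uncalled genes were named after their values were seen. Alternatives were DESeq2 1.42.0, limma 3.58.1 on weighted counts and on log2(FPKM + 1) or log2(FPKM + 0.1), other scalings and filters, a replicate block, other thresholds and leaving out each library. Promoters came from RefSeq tables and no genome coordinates from the files. Protein sequences were not used here.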

Additional observations from a re-analysis of the deposited data

How the results depend on the processing

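The directions of all 10 genes held in each of 18 other fits, and 2 further alternatives changed only the threshold. The calls of *Vegfa*, *Vegfb*, *Vegfc*, *Pgf* and *Nrp2* held in all 20, with the largest adjusted p at 0.000303. *Vegfd* was called in 3, without endogenous replicate 1 and in both limma fits on log2(FPKM + 1) (adjusted p = 0.0243 and 0.0409). *Kdr* lost its call in 3, *Nrp1* in 6 and *Flt1* in 1. At a threshold of 0.001 on the adjusted p, 1 of the 10 genes was higher and 4 were lower, and 2134 genes in all were higher and 2380 lower. When the size of the log2 fold change also had to reach 1, 2756 genes in all were higher. The summed ligand level, with a log2 difference of -0.425 in TPM, became 0.136 in FPKM and 0.0194 in TMM-scaled FPKM, a scale added after the data were seen. Leaving out each library in turn gave 2 to 4 of the 10 genes higher and 4 or 5 lower. In these fits 3672 to 5563 genes in all were higher and 3761 to 5686 lower. The 4 higher genes came without endogenous replicate 1, where 76.4% of all genes were called.

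The replicate number as a block left 3 of the 10 genes higher and 5 lower, and 4103 genes in all higher and 3920 lower. The sources used here state no pairing of same-numbered libraries. Their deviations from the group means correlated by 0.0129, 0.00221 and 0.0178, and those of differently numbered libraries by -0.0145 to 0.00824. Such values from 3 libraries per group cannot settle whether the libraries were paired. With only 3 libraries per group, a biological coefficient of variation of 35.3% among the endogenous libraries against 6.77% among the MSC-derived ones limits what can be seen for genes of low count such as *Vegfd* and *Flt4*. The 35.3% includes endogenous replicate 1, which stood apart. In the edgeR fit without that library *Vegfd* was called (adjusted p = 0.0287) and *Flt4* was not (adjusted p = 0.108).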

Other observations

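The count and FPKM of a gene together give the effective length that the authors' quantification used for it, which moves when the estimated mix of transcripts moves. For *Nrp1* it was 4.83, 4.81 and 4.85 kb in the MSC-derived libraries and 4.69, 4.72 and 4.72 kb in the endogenous ones, a difference of 2.51%. For *Nrp2* it was 5.26, 5.13 and 5.29 kb against 5.09, 4.99 and 4.99 kb, a difference of 4.09%. The groups did not overlap for either neuropilin, as for 18.7% of the 5916 genes with at least 5 FPKM in every library, and 87.7% and 92.4% of those genes differed by less. *Vegfa* had 3.15 to 3.17 kb in all libraries. For *Flt1* the effective length was 4.07 kb in endogenous replicate 1 and 5.22 to 5.62 kb in the others, on 92 counts in that library. *Kdr* was shortest in the same library too, at 4.92 kb on 51 counts, against 5.56 to 5.76 kb in the others. Levels of single transcripts were not analysed here.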
